A study of Mus musculus with 18 samples.

Results

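The liver X receptors LXRα, encoded by *Nr1h3*, and LXRβ, encoded by *Nr1h2*, and 7 of their target genes, *Abca1*, *Abcg1*, *Abcg5*, *Abcg8*, *Srebf1*, *Mylip* and *Lpcat3*, were followed across the ileum of mice that differed in diet and in the floxed or deleted state of Pgc1α. Every probe that the array files name after one of these 9 genes was taken, which gave 14 of the 56605 probes and 9 of the 37074 gene names. Of these, 13 probes, at least 1 for every gene, were well above background on 5 or more of the 6 arrays of some group, against 32726 probes and 21542 genes in all. The probe left out, probe 3 of *Nr1h2* (chr7:51808232-51808291 on mm9, minus strand), was well above background on 0 of 18 arrays.

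LXRs are nuclear receptors that bind oxysterols, the oxidised forms of cholesterol, and work as heterodimers with the retinoid X receptors at a direct repeat of AGGTCA with a spacer of 4 bases. In the enterocyte, the absorptive cell of the gut, their targets carry cholesterol out of the cell, either across the basolateral membrane into lipoproteins or back into the lumen, and drive fatty acid synthesis and the remodelling of membrane phospholipids. The SREBP2 pathway works in the opposite state: it is processed when sterols in the membrane of the endoplasmic reticulum are scarce, and it turns on cholesterol synthesis and uptake.

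The 18 mice were on the C57BL6/J background and fell into 3 groups of 6, with 1 array each. The labels call these groups iPGC1afl/fl_CHOW, iPGC1afl/fl_HFD and iPGC1a-/-_HFD. Both floxed groups carry loxP sites around part of Pgc1α without the recombinase and were the control littermates. In iPGC1a-/- mice a Cre driven by the villin promoter deletes the floxed exons in intestinal epithelium, so that immune, stromal and endothelial cells of the ileum keep the gene. Mice entered the study at 8 weeks of age and received for 8 weeks either chow or a milk-fat diet with 42% of its energy as fat and 0.2% cholesterol, called WD by the study and HFD by the labels and here. All were fasted overnight before the ileum was collected in the morning. The labels call the samples ileum single cells, but each array measured the bulk RNA of the cells chelated from 1 ileum, on Agilent one-colour arrays with probes of 60 bases. Fewer cells of a type and less RNA per cell therefore cannot be told apart.

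Quality was alike across the 18 arrays, with 56.3% to 62.3% of spots well above background and a median correlation with the arrays of the same group of 0.9894 to 0.9947. Each of the 3 slides held 2 arrays of every group. Levels are given as log2 of the normalized median spot signal. A level on this scale compares samples for 1 probe and does not compare probes with each other. The signal of *Ppargc1a*, the gene of Pgc1α, was 10.94 ± 0.46 on chow, 11.38 ± 0.07 in floxed mice on HFD and 11.67 ± 0.26 in iPGC1a-/- mice on HFD (SD, n = 6 each). These values are from the brighter of its 2 measured probes. Both probes had a higher mean in the iPGC1a-/- than in the floxed HFD arrays, and neither was called. The signal was thus not lower in the arrays labelled iPGC1a-/-. Whether either probe lies in the deleted exons was not determined, and a direction by genotype is that of the labels. Apart from these arrays, the study reports that it checked the deletion along the gut by RT-qPCR for Pgc1α and found it.

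The markers of the labelled tissue were present. All 13 enterocyte markers passed the filter, and their mean level ranged from 15.47 to 16.12 on chow, from 15.97 to 16.30 in floxed mice on HFD and from 16.19 to 16.39 in iPGC1a-/- mice on HFD. Immune cells were present as well. The mean of 8 T cell and intraepithelial lymphocyte markers ranged from 9.22 to 10.79 on chow and was lower in floxed mice on HFD by 1.65 (exact permutation p = 0.00216, the smallest p that 6 against 6 can give). Of 5 genes listed as hepatocyte markers, 4 passed the filter and *Alb*, the albumin gene, did not. The mean of these 4 ranged from 6.95 to 7.59 on chow and from 6.99 to 7.76 in floxed mice on HFD (difference 0.28, exact permutation p = 0.102). With diet 1 of them was called higher and 0 lower, against 3.53% and 5.58% of all genes. Which cells gave these signals was not tested, nor was their part in the results.

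The promoter sequences of the members were examined first. Windows of 300 bases, from 250 before to 50 after the transcript start, came from RefSeq on GRCm38.p6 and were given for 8 of the 9 genes, in 12 windows. Each window was searched on both strands for the LXR repeat, AGGTCA, 4 bases of any kind and AGGTCA again, with up to 2 mismatches in its 12 fixed letters, and for the sterol response element TCACNCCAC with none. None of the member windows held either, against 3.02% and 1.24% of all 32851 promoter windows. With up to 3 mismatches, a setting chosen after that result, 21.9% of all windows held the repeat, and among the members those of *Abca1* and *Srebf1* did. The bases around these matches follow, on the plus strand of GRCm38.p6, since both genes turned out to share most of the element, together with those of *Fasn*, described after them. Capitals mark the letters equal to a fixed letter of the repeat.
Abca1 (chr4:53159940-53159969): agcgccggGGTtActaccGGTCAaacgctg
Srebf1 (chr11:60210631-60210660): cgcgctggGGTtActggcGGTCActgtcgt
Fasn (chr11:120824750-120824779): tcaggcggGGTtActaccGGTCAtcgtggc
The *Abca1* match begins 67 bases before the transcript start, and the *Srebf1* match 182 bases before the most downstream start of the 3 listed *Srebf1* transcripts. The stretch that both matches share, GGGTTACTNNCGGTCA, was then sought in every window. Since it was built from the *Abca1* and *Srebf1* windows, their own matches are given by construction. The only other of the 32851 windows to hold it was that of *Fasn*, the fatty acid synthase gene. A match of letters is a description and not a binding measurement. These 3 genes did not move alike with diet.

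*Abcg5* and *Abcg8* face away from each other on chromosome 17, and 109 bases separate their nearest starts (84683011 on the minus strand and 84683121 on the plus strand). This stretch is shown because these nearest starts lie on opposite strands at its 2 ends. *Abcg8* has another listed start, with its window at chr17:84676052-84676351, and which start gave the *Abcg8* signal was not determined. The stretch between the nearest starts holds neither motif at the mismatches given above and has a GC content of 45.9%.
Abcg5-Abcg8 (chr17:84683012-84683120, plus strand): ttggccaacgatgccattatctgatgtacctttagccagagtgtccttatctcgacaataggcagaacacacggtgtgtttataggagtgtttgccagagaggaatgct

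On HFD, 7 of the 9 genes were higher than on chow in floxed mice: *Nr1h3*, *Abca1*, *Abcg5*, *Abcg8*, *Srebf1*, *Mylip* and *Lpcat3*. A call required, at 1 or more probes of the gene, a fold change beyond 1.5 and a limma p of at most 0.05 after Benjamini-Hochberg adjustment over 32726 probes. By this rule 9.1% of all genes were called, 3.53% as higher. At 10 of the 13 member probes the difference was called, each time as higher (2.9% of all probes), and at the same 10 probes every HFD array lay above every chow array (4.77% of all probes). The median difference over the 13 probes was 0.67 on the log2 scale, and 0.00 over all probes. For each of these 10 probes the exact permutation p was 0.00216, and the difference had the same direction within each of the 3 slides. No member was called between iPGC1a-/- and floxed mice on HFD.

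**Figure D1:**
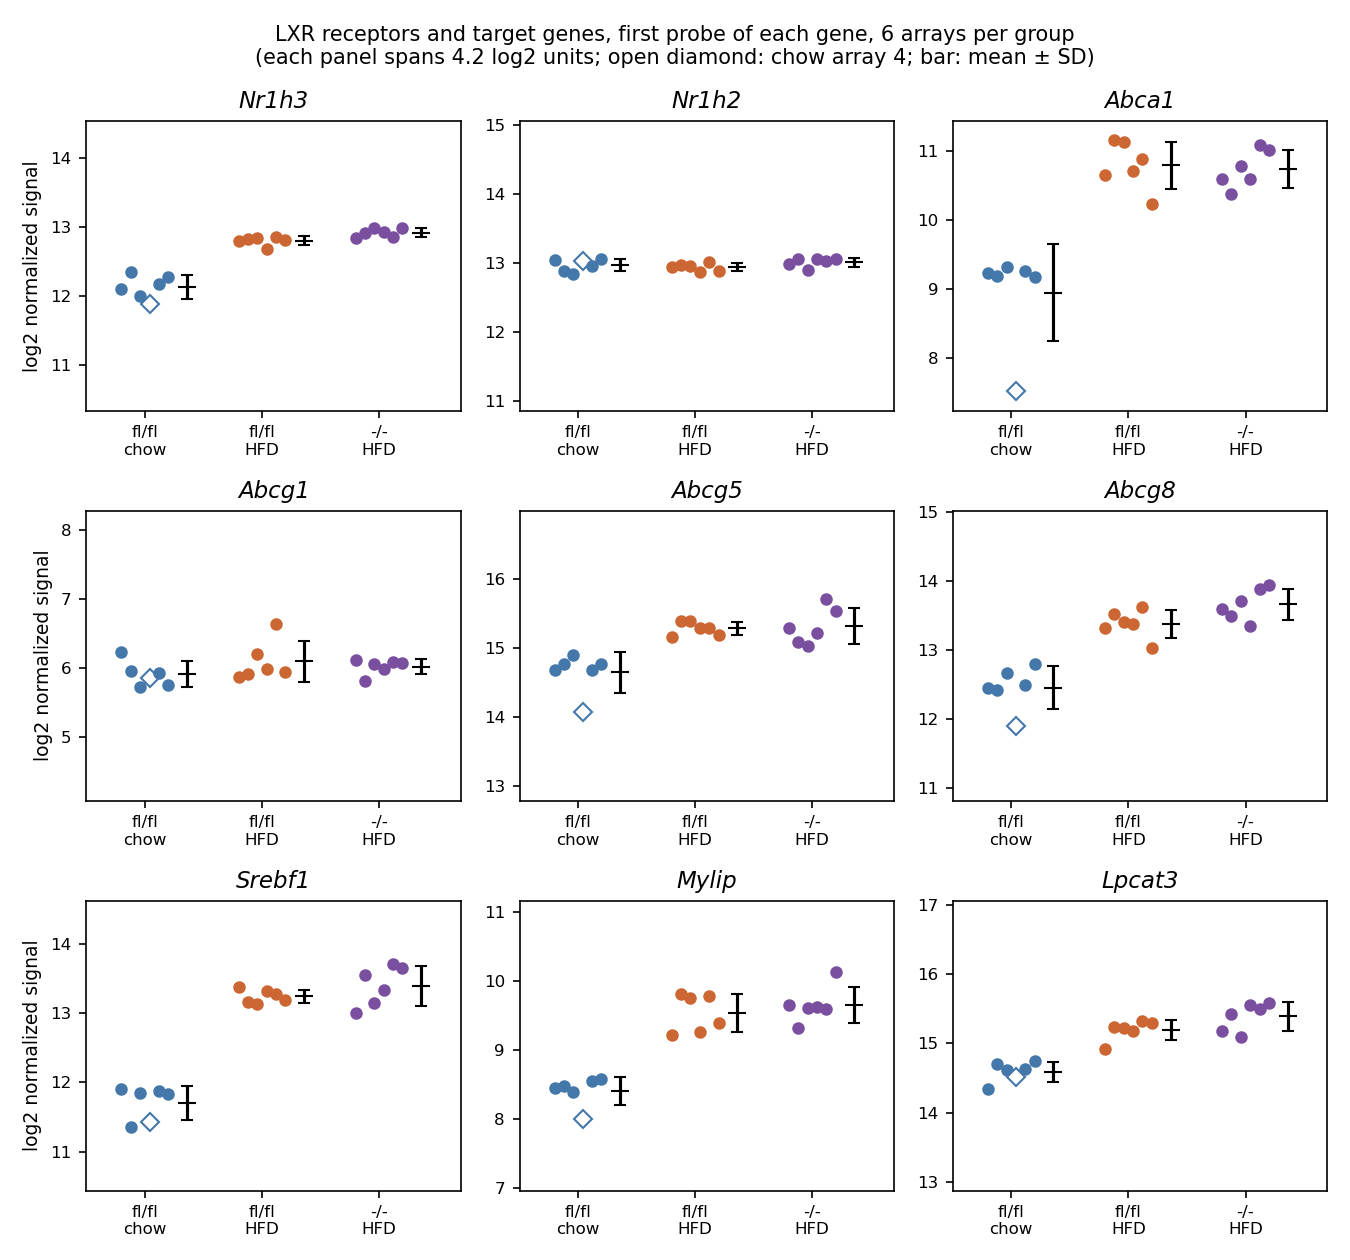
Log2 normalized signal of probe 1 of each of the 9 genes in the 6 arrays of each group (fl/fl chow, fl/fl HFD, -/- HFD, for iPGC1a), with the mean ± SD as a bar beside the points and chow array 4 as an open diamond. In 7 panels all HFD points lie above all chow points, while for *Nr1h2* and *Abcg1* the groups overlap. The *Abca1* point of chow array 4 lies at 7.52.

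*Nr1h3*, the gene of LXRα, was read by a pair of probes (chr2:91024250-91024309 and chr2:91024435-91024494 on mm9, minus strand). At probe 1 its signal on chow had a lowest value of 11.89, a median of 12.14 and a highest value of 12.35. The floxed HFD arrays ran from 12.68 through a median of 12.82 to 12.85, and the iPGC1a-/- HFD arrays from 12.84 through 12.92 to 12.99. Both HFD groups thus lay wholly above chow, and they overlapped each other only between 12.84 and 12.85. With diet *Nr1h3* rose by 0.67 ± 0.08 (SE, 1.59-fold, adjusted p = 3.37e-06) at probe 1 and by 0.72 ± 0.08 (adjusted p = 2.66e-06) at probe 2. The 95% confidence interval of the fold at probe 1 was 1.43 to 1.77, so it reached below the threshold of 1.5.

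*Nr1h2*, the gene of LXRβ, gave a different result. At probe 1 (chr7:51805013-51805072 on mm9, minus strand) the chow arrays ran from 12.85 through a median of 13.00 to 13.07, the floxed HFD arrays from 12.87 through 12.96 to 13.02, and the iPGC1a-/- HFD arrays from 12.90 through 13.05 to 13.06. The 3 groups overlapped almost entirely. The diet difference was -0.03 ± 0.06 (adjusted p = 0.78), with a 95% interval of the fold from 0.896 to 1.07. Its sign turned under 3 other ways of processing, with values up to 0.13. Probe 2 (chr7:51807934-51808069, 136 bases on the genome for a probe of 60, so it crosses an intron) differed by 0.17 ± 0.13 (adjusted p = 0.376). The difference between the diet responses of the 2 receptor genes was not tested.

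The genes around the receptors were measured too, with 21 partners and coregulators, among them the retinoid X receptors and the NCoR and SRC families. With diet, 0 of the 21 were called by limma, against 9.1% of all genes. Without the fold threshold 6 of them (2 higher, 4 lower) reached an adjusted p of 0.05, a share near the 27.3% of all genes. *Rxra*, a gene of the retinoid X receptors, was at 14.06 ± 0.06 on chow and 14.16 ± 0.05 on HFD in floxed mice (adjusted p = 0.325), and *Rxrb* at 12.17 ± 0.21 and 12.14 ± 0.08 (adjusted p = 0.838). *Ppargc1b*, the coactivator gene related to *Ppargc1a*, was lower by 0.54 ± 0.14 in the floxed HFD arrays (adjusted p = 0.0079), which is 0.686 of the chow level and short of the fold threshold.

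Enzymes that make or clear sterol ligands were measured too, with 10 of 13 listed genes past the filter. *Cyp3a11*, a cytochrome that hydroxylates bile acids and sterols, was called lower, by 1.16 ± 0.39 on the log2 scale (adjusted p = 0.0384), and its groups overlapped. *Sult2b1*, a sulfotransferase for cholesterol and oxysterols, was higher by 0.37 ± 0.11 (1.29-fold, adjusted p = 0.0195), under the fold threshold. *Cyp27a1*, which makes a side-chain oxysterol in mitochondria, differed by 0.45 ± 0.28 (adjusted p = 0.259).

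The transporters come next. ABCA1 moves cholesterol and phospholipid onto apolipoprotein A-I at the basolateral side of the enterocyte, where intestinal HDL is formed. The *Abca1* signal at probe 1 (chr4:53043944-53044003 on mm9, minus strand) ran on chow from 7.52 through a median of 9.22 to 9.32. In floxed mice on HFD it ran from 10.24 through 10.79 to 11.16, and in iPGC1a-/- mice on HFD from 10.38 through 10.70 to 11.09. Chow array 4 was far below the other chow arrays, which ran from 9.18 to 9.32, and the HFD groups lay on top of each other and above chow. *Abca1* rose by 1.84 ± 0.24 (SE, 3.59-fold, 95% interval of the fold 2.52 to 5.1, adjusted p = 1.83e-05), the widest difference among the members. Without chow array 4 the difference was 1.56 and was still called.

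Probe 2 of *Abca1* (chr4:53048405-53049145, crossing an intron) was dim, well above background on 5 of 6 chow arrays and on all HFD arrays. It ran from 4.93 to 5.79 on chow and from 6.47 to 7.22 in floxed mice on HFD, again without overlap, and rose by 1.33 ± 0.15 (2.51-fold, adjusted p = 2.54e-06). Within the slides the difference at probe 1 was 1.73, 1.67 and 2.12, and at probe 2 it was 1.30, 1.34 and 1.34.

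ABCG1 passes cholesterol to HDL particles and is known chiefly from macrophages. The array holds 1 probe for *Abcg1* (chr17:31252580-31252639 on mm9, plus strand), and its raw median signal was 49 to 111 on all arrays, near the lower end of what was detected. The level ran from 5.72 through a median of 5.89 to 6.24 on chow, from 5.87 through 5.97 to 6.64 in floxed mice on HFD and from 5.82 through 6.06 to 6.11 in iPGC1a-/- mice on HFD. The groups overlapped, with 1 HFD array above the highest chow array. The diet difference was 0.19 ± 0.12 (1.14-fold, adjusted p = 0.262), with a 95% interval of the fold from 0.962 to 1.34. Of 11 macrophage markers, 9 passed the filter and *Adgre1* and *C1qa* did not. Their mean level was 8.59 to 8.73 on chow and was lower by 0.27 in floxed mice on HFD (exact permutation p = 0.00216). By diet 1 marker was called lower and 0 higher, against 5.58% and 3.53% of all genes. Single markers differed: *Cd14* had a mean of 8.65 on chow and 7.36 in floxed mice on HFD, and *C1qb* 6.78 and 6.92. The part of macrophages in the *Abca1* and *Abcg1* signals was not tested.

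ABCG5 and ABCG8 form an obligate heterodimer on the apical membrane that returns cholesterol and plant sterols to the lumen. *Abcg5* (chr17:85057604-85057663 on mm9, minus strand) ran from 14.08 through a median of 14.73 to 14.91 on chow, from 15.16 through 15.30 to 15.40 in floxed mice on HFD and from 15.03 through 15.26 to 15.71 in iPGC1a-/- mice on HFD. *Abcg8* (chr17:85099609-85099668, plus strand) ran from 11.89 through 12.46 to 12.79 on chow, from 13.03 through 13.39 to 13.62 and from 13.35 through 13.65 to 13.94 in the respective HFD groups. Neither HFD group overlapped chow for either gene, and chow array 4 was the lowest array for both.

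With diet *Abcg5* rose by 0.64 ± 0.13 (1.56-fold, 95% interval of the fold 1.3 to 1.87, adjusted p = 0.00105) and *Abcg8* by 0.93 ± 0.14 (1.9-fold, 95% interval 1.56 to 2.31, adjusted p = 5.02e-05). The 2 partner genes thus moved the same way. Without chow array 4 *Abcg5* differed by 0.52 (adjusted p = 0.00156), which is no longer past the fold threshold, while *Abcg8* differed by 0.82 and remained called. Whether the difference between the 2 genes exceeds their spread was not tested.

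Other ABC transporters of lipids and sterols were not uniformly higher. Of 11 measured, 4 were called higher and 1 lower, against 3.53% and 5.58% of all genes, with a list median of 0.19. *Abcc2*, a canalicular and apical exporter of organic anions, rose by 1.13 ± 0.15 (adjusted p = 2.5e-05) and *Abcb4*, a phosphatidylcholine floppase, by 0.79 ± 0.17 (adjusted p = 0.0019). *Abcg2*, an exporter related to the ABCG members, fell by 0.63 on the log2 scale (SE 0.10, adjusted p = 0.000109), and its floxed HFD arrays, with a highest value of 13.78, lay below every chow array, the lowest of which was 13.93.

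*Srebf1* encodes SREBP1, the activator of fatty acid synthesis, whose 1c transcript is a classical LXR target. It has 1 probe (chr11:60013214-60013273 on mm9, minus strand), and which of its transcripts that probe reads was not determined here. The level ran from 11.35 through a median of 11.84 to 11.90 on chow, from 13.13 through 13.24 to 13.38 in floxed mice on HFD and from 13.00 through 13.45 to 13.72 in iPGC1a-/- mice on HFD. The gap between the highest chow array and the lowest floxed HFD array, 1.23, was the widest among the members. *Srebf1* rose by 1.54 ± 0.12 (SE, 2.91-fold, 95% interval of the fold 2.43 to 3.48, adjusted p = 6.81e-08). The difference was between 1.48 and 1.58 whichever array was left out.

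The fatty acid genes downstream split. *Scd1* and *Scd2*, the stearoyl-CoA desaturases, rose by 6.14 ± 0.24 (adjusted p = 1.91e-12) and 2.54 ± 0.30 (adjusted p = 5.82e-06). *Fasn* went the other way and ran from 12.21 through 12.42 to 12.93 on chow and from 11.45 through 11.80 to 12.29 in floxed mice on HFD. It fell by 0.66 on the log2 scale (SE 0.15, adjusted p = 0.00261), with overlap between the groups. Without chow array 4 its difference was -0.57 (adjusted p = 0.00824), short of the fold threshold. *Acaca*, the acetyl-CoA carboxylase gene, differed by 0.00 ± 0.12 (adjusted p = 0.984).

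Over the 22 measured LXR targets other than the members, 4 were called higher (*Scd1*, *Scd2*, *Apoc2*, *Mertk*) and 3 lower (*Apoe*, *Tgm2*, *Fasn*). Of all genes 3.53% were called higher and 5.58% lower. The median difference of the 22 was -0.02. *Apoc2*, an apolipoprotein that activates lipoprotein lipase, rose by 1.21 ± 0.19 (adjusted p = 0.00011). *Apoe*, the apolipoprotein E gene, fell by 0.92 on the log2 scale (SE 0.23, adjusted p = 0.00585), and *Tgm2*, a transglutaminase, fell by 0.89 (SE 0.13, adjusted p = 5.01e-05). The targets on this list therefore held calls in both directions.

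**Figure D2:**
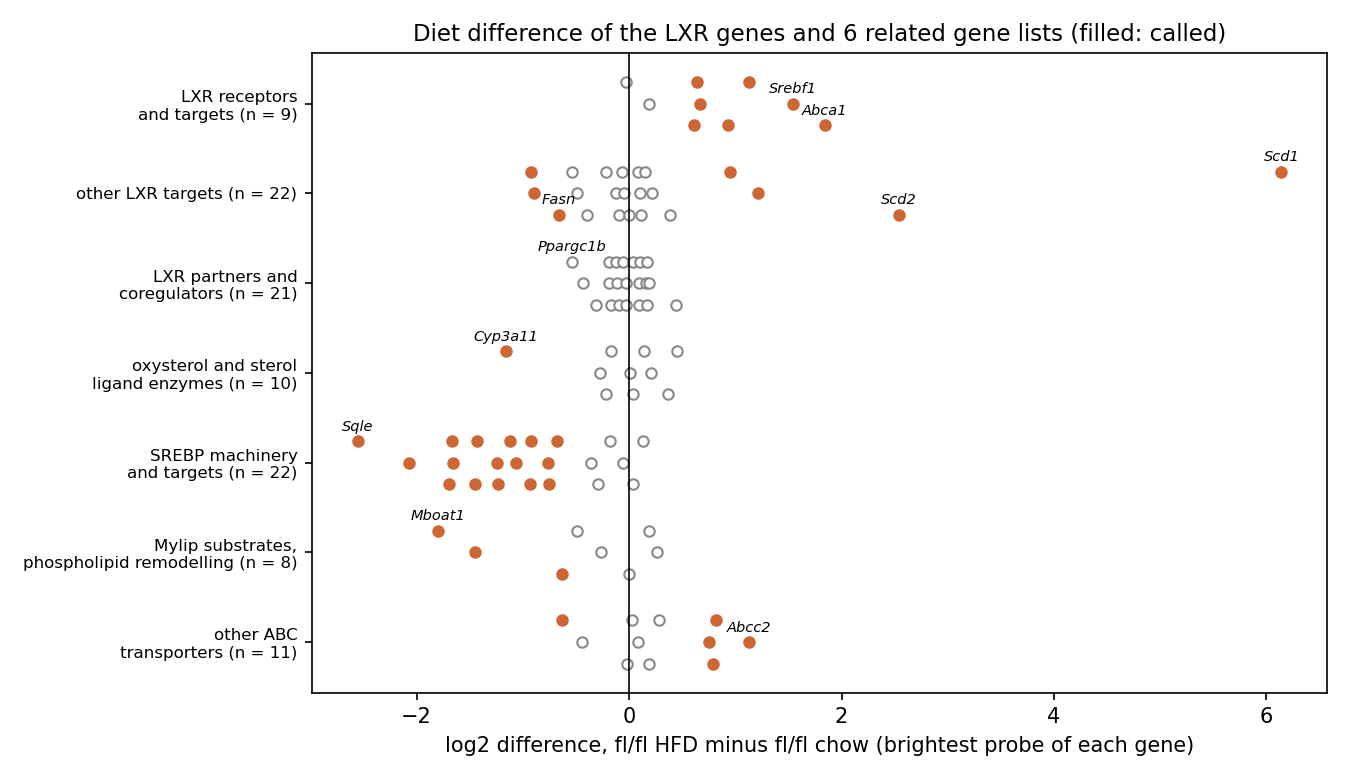
Log2 difference of floxed HFD minus floxed chow at the brightest probe of each gene, for the 9 LXR genes and for 6 related gene lists, with genes that passed the adjusted p and the fold threshold filled. The called LXR genes lie to the right of 0, and the 16 called genes of the SREBP machinery and targets all lie to the left, with *Sqle* at -2.55.

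*Mylip*, also called Idol, encodes a ubiquitin ligase that marks lipoprotein receptors for degradation. At its probe (chr13:45506979-45507038 on mm9, plus strand) it ran from 8.00 through a median of 8.46 to 8.57 on chow, from 9.21 through 9.57 to 9.81 in floxed mice on HFD and from 9.32 through 9.62 to 10.12 in iPGC1a-/- mice on HFD. The HFD arrays all lay above chow. *Mylip* rose by 1.13 ± 0.14 (SE, 2.19-fold, 95% interval of the fold 1.8 to 2.66, adjusted p = 6.56e-06).

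Among the genes of its substrates, *Vldlr* differed by -0.49 ± 0.16 (adjusted p = 0.026), under the fold threshold, and *Lrp8* by 0.26 ± 0.10 (adjusted p = 0.0568). *Mylip* and *Vldlr* thus differed in opposite directions, *Vldlr* without a call.

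Genes of the sterol-sensing arm were mostly lower on HFD. Of 22 genes of the SREBP machinery and SREBP2 targets, 16 were called lower and 0 higher, against 5.58% and 3.53% of all genes, and their median difference was -0.99. *Sqle*, the squalene epoxidase gene, fell by 2.55 (SE 0.21, adjusted p = 8.79e-08), and ran from 11.93 to 13.20 on chow and from 9.79 to 10.43 in floxed mice on HFD. *Hmgcs1*, an early enzyme of cholesterol synthesis, fell by 1.66 (adjusted p = 1.04e-06). *Srebf2* itself differed by -0.36 ± 0.16 (adjusted p = 0.103). By genotype 0 of the 22 were called.

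LPCAT3 puts polyunsaturated fatty acids into phosphatidylcholine, which keeps the enterocyte membrane fluid and aids chylomicron assembly. *Lpcat3* probe 1 (chr6:124654029-124654088 on mm9, plus strand) ran from 14.34 through a median of 14.62 to 14.74 on chow, from 14.92 through 15.24 to 15.33 in floxed mice on HFD and from 15.09 through 15.47 to 15.59 in iPGC1a-/- mice on HFD. No HFD array reached down to chow, but the gap to the floxed HFD group was only 0.18. *Lpcat3* rose by 0.61 ± 0.10 (1.52-fold, 95% interval of the fold 1.32 to 1.76, adjusted p = 0.000142) at probe 1 and by 0.60 ± 0.11 (1.51-fold, adjusted p = 0.000674) at probe 2 (chr6:124653374-124653542, crossing an intron). Both values lie just past the fold threshold, and the call was lost when chow array 1 (0.55 at probe 1) or floxed HFD array 5 (0.57) was left out.

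Among other enzymes of phospholipid remodelling, *Mboat1* fell by 1.80 on the log2 scale (SE 0.14, adjusted p = 3.41e-08), with chow arrays from 8.95 to 9.78 and floxed HFD arrays from 7.44 to 7.77, and *Lpcat4* fell by 0.63 (SE 0.18, adjusted p = 0.0138). The other measured enzymes of that list were not called: *Mboat7* differed by 0.19 ± 0.08 (adjusted p = 0.0853), *Lpcat2* by 0.00 ± 0.12 (adjusted p = 0.984) and *Agpat3* by -0.26 ± 0.16 (adjusted p = 0.264).

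**Figure D3:**
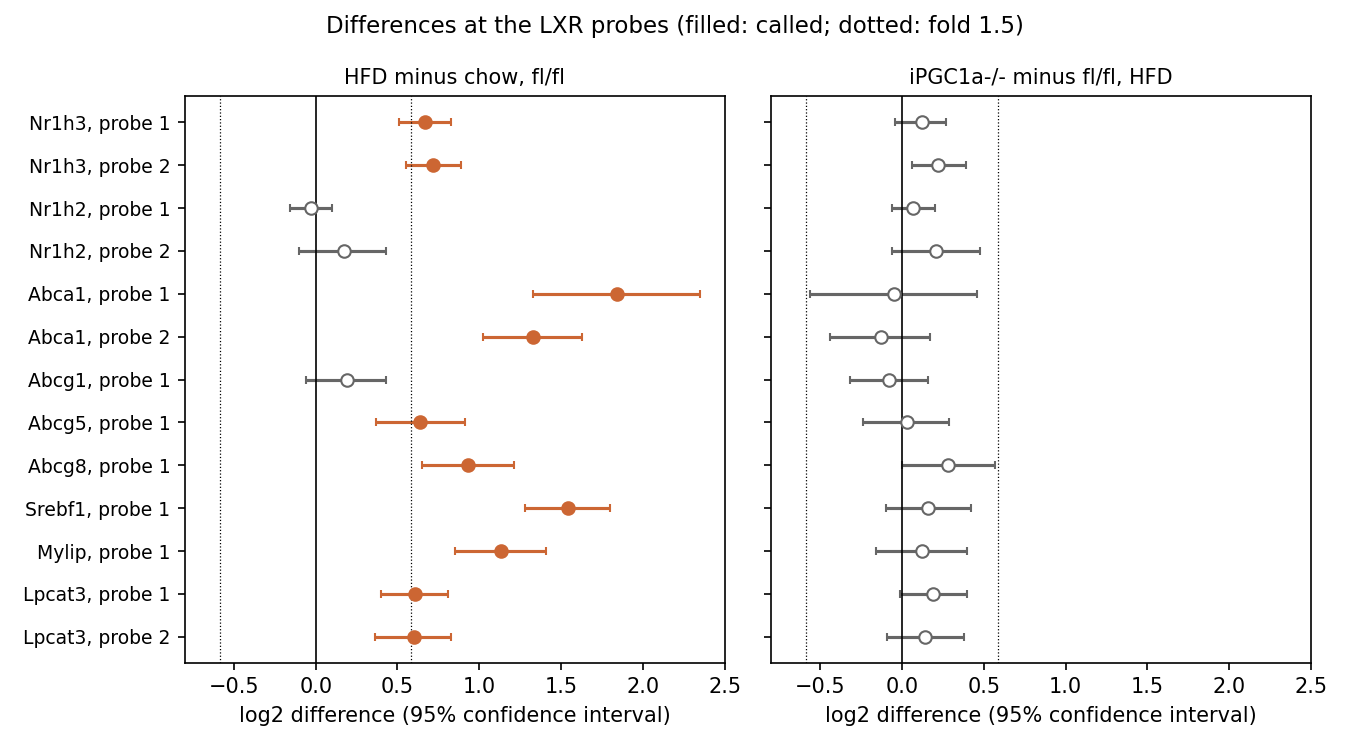
Log2 difference with its 95% confidence interval at the 13 LXR probes, for floxed HFD minus floxed chow (left) and for iPGC1a-/- minus floxed on HFD (right), with dotted lines at a fold of 1.5 in either direction and called differences filled. On the left 10 probes are called, on the right 0, and all 13 intervals on the right lie between the dotted lines.

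Between iPGC1a-/- and floxed mice on HFD, 0 of the 9 genes were called by limma, where 0.162% of all genes were. At an unadjusted limma p under 0.05, 1 of the 13 member probes passed, against 9.61% of all probes. The limma p and intervals rest on a spread shared by all 3 groups, chow included. The median difference over the 13 probes was 0.12, and 0.01 over all probes. At each of the 13 probes the 95% interval of the difference lay within a fold of 1.5 in either direction.

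The probe with the lowest unadjusted p was probe 2 of *Nr1h3*. It ran from 11.96 through a median of 12.04 to 12.14 in floxed mice and from 12.07 through 12.33 to 12.39 in iPGC1a-/- mice on HFD, and 4 iPGC1a-/- arrays lay above the highest floxed array. The difference was 0.22 ± 0.08 (1.17-fold, limma p = 0.0115, adjusted p = 0.405, exact permutation p = 0.0152). At probe 1 it was 0.12 ± 0.08 (1.08-fold, adjusted p = 0.637, exact permutation p = 0.00649), with 5 of 6 iPGC1a-/- arrays above the highest floxed array. The SD at probe 1 was 0.17 on chow and 0.06 in each HFD group, and the exact test leaves the chow arrays out. Both probes were higher in iPGC1a-/- mice within each of the 3 slides, and neither passed the adjustment over all probes.

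Of the 13 member probes 10 had a higher mean in iPGC1a-/- mice, and those of *Abca1* and *Abcg1* a lower one, none of them called. *Mylip* differed by 0.12 ± 0.14 (adjusted p = 0.805) and *Abcg1* by -0.08 ± 0.12 (adjusted p = 0.855). *Abcg8* differed by 0.28 (1.22-fold, 95% interval of the fold 1 to 1.48, adjusted p = 0.52, exact permutation p = 0.0476), with the same sign in each of the 3 slides. *Abca1* differed by -0.05 ± 0.24 at probe 1, with a 95% interval of the fold from 0.679 to 1.38 and within-slide values of -0.28, -0.08 and 0.22. *Srebf1* differed by 0.16 ± 0.12, with within-slide values of 0.42, 0.24 and -0.19. *Lpcat3* differed by 0.19 ± 0.10 (adjusted p = 0.542) and *Abcg5* by 0.03 ± 0.13 (adjusted p = 0.963). The sign turned for *Abca1* and *Abcg5* when single arrays were left out, and for *Abcg5* also under other scalings. *Scd1* was the only called gene of the 6 related lists between the genotypes, higher by 1.16 (adjusted p = 0.045) in iPGC1a-/- mice.

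The order of the groups was thus chow lowest for all 7 diet-called genes, with the 2 HFD groups above it and not separated from each other. The iPGC1a-/- HFD arrays, which differ from floxed chow in both diet and genotype, lay wholly above chow at the same 10 probes, where 7.18% of all probes did so. Their distance from chow was 0.79 for *Nr1h3*, 1.79 for *Abca1*, 0.67 for *Abcg5*, 1.21 for *Abcg8*, 1.70 for *Srebf1*, 1.25 for *Mylip* and 0.80 for *Lpcat3*, each at probe 1. These values share the chow arrays with those of the diet comparison and are no second measurement of it. For *Nr1h2* and *Abcg1* no neighbouring groups differed beyond their spread.

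Within the groups the members did not all vary alike. Over the 18 arrays, with each group centred on its mean, *Abca1* varied with *Abcg5* (Pearson r = 0.843, Spearman rho = 0.841) and *Abcg8* (r = 0.839, rho = 0.711), and less with *Mylip* (r = 0.7) and *Srebf1* (r = 0.376). Without the arrays farthest from the *Abca1* median, chow array 4 and floxed HFD array 6, r was 0.749 for *Abcg5*, 0.657 for *Abcg8* and 0.204 for *Srebf1*. *Nr1h3* had an r of 0.526 with *Abca1*, which was 0.0796 without the arrays farthest from the *Nr1h3* median, so this value rested on those arrays. The correlations are given as descriptions, since all values of an array share its RNA and its normalization.

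Among 21469 genes compared by the same measure, those most like *Abca1* were *Sec24d*, of the coat of vesicles leaving the endoplasmic reticulum, at 0.924, *4930551O13Rik* at 0.897 and *Cyp4v3*, a fatty acid hydroxylase, at 0.896. Those most like *Nr1h3* were *Lap3*, a leucine aminopeptidase, at 0.882, *Tubal3* at 0.854 and *Fam114a1* at 0.85. Those most like *Srebf1* were *Rgp1* at 0.853, *Cog1* at 0.826 and *Rdh11* at 0.802. For *Abcg5*, *Abca1* had rank 2 and *Dync1li1*, a dynein chain, rank 3, at 0.837, behind a transcript without a gene symbol at 0.861. Chow array 4 moved several of these values, and without it r was 0.777 for *Sec24d* and 0.819 for *Lap3* against 0.861 for *Rgp1*.

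**Figure D4:**
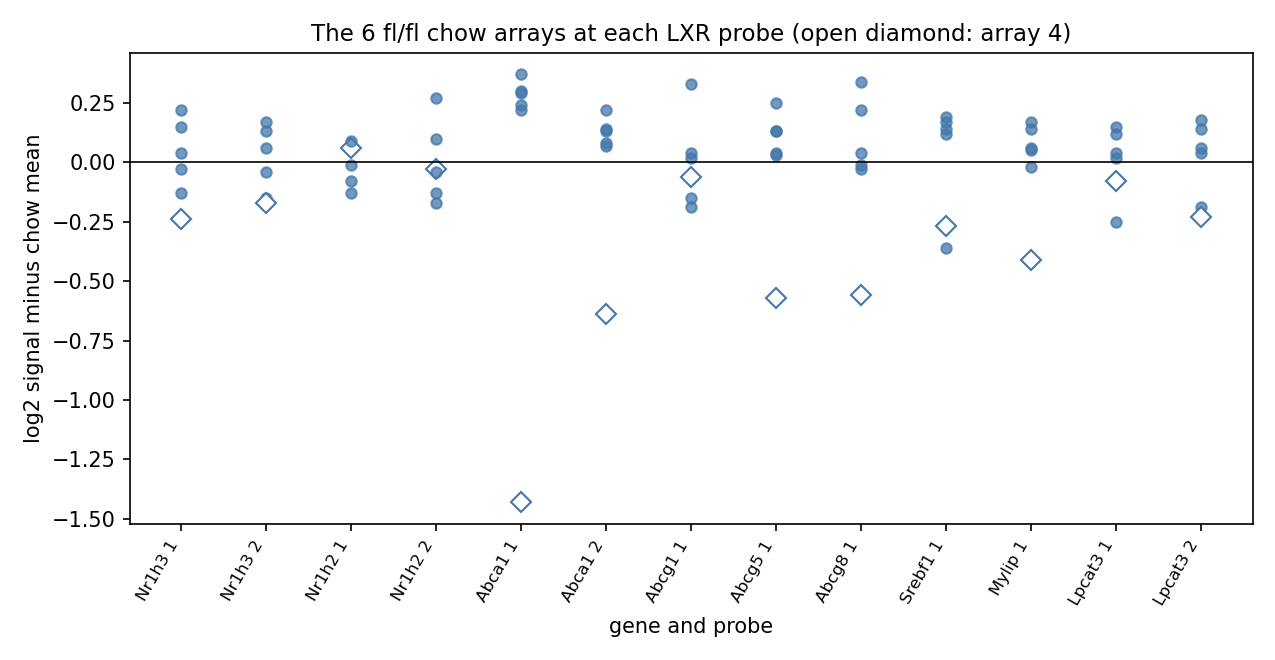
Log2 signal of each of the 6 floxed chow arrays minus the chow mean, at each of the 13 LXR probes (gene and probe number on the x axis), with array 4 as an open diamond. Array 4 is the lowest chow array at 8 probes and lies apart from the others for *Abca1*, *Abcg5*, *Abcg8* and *Mylip*.

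Chow array 4 was the lowest of the chow arrays at 8 of the 13 member probes, in 6 genes, where it was lowest at 19.3% of all probes. It stood at 7.52 for *Abca1*, with the next chow array at 9.18, at 14.08 against 14.68 for *Abcg5* and at 8.00 against 8.39 for *Mylip*. The same array had the lowest mean of enterocyte markers on chow (15.47) and the highest mean of crypt stem and proliferating cell markers (10.26). It also had the lowest chow mean of Paneth (15.02), enteroendocrine (9.40) and hepatocyte (6.95) markers. Its single enterocyte markers went both ways: *Lct* stood at 13.42 against a chow mean of 15.07, and *Fabp6* at 17.95 against 17.14. The part of cell composition in the low LXR target signals of chow array 4 was not tested.

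The cell markers also moved with diet. The enterocyte marker mean was higher by 0.30 in floxed mice on HFD (exact permutation p = 0.0195). Of its 13 markers 4 were called higher and 1 lower, against 3.53% and 5.58% of all genes. Goblet cell markers were lower by 0.71 (exact permutation p = 0.00433) and plasma cell markers by 1.49 (exact permutation p = 0.00216). Single enterocyte markers moved further than this mean and in both directions: *Alpi*, the intestinal alkaline phosphatase gene, had a mean of 12.96 on chow and 13.86 in floxed mice on HFD, and *Slc10a2*, the ileal bile acid transporter gene, 13.08 and 12.01. Both shifts were larger than those of *Nr1h3*, *Abcg5* and *Lpcat3*, and the part of cell composition in the rises of the members was not tested. Between the genotypes on HFD the enterocyte mean differed by 0.10 (exact permutation p = 0.223).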

How the data were processed

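Signals from 18 one-colour Agilent arrays, 6 per group, were analysed. The authors deposited spot intensity values from Agilent Feature Extraction 10.10.1.1 (named in the submitters' processing notes), not normalized between arrays, and log2 values for 33095 probes, a table that was used as an alternative. The study also corrected for washing bath and labelling serial, which are not assigned to arrays in the sources used here, so that step was not repeated. Control and outlier spots were left out. The log2 median signal of 32726 probes was brought to group-smoothed quantiles by a rewritten qsmooth with a window of 0.05 (R 4.3.3, data.table version 1.17.8), and a single model of the 3 groups was fitted with limma 3.58.1 (lmFit, eBayes, Benjamini-Hochberg). Exact permutation tests were two-sided, over 924 divisions of 12 arrays. The fit was tested on simulated data, in which it called 94 of 100 probes changed by 1 on the log2 scale in the diet comparison of 32638 probes, 99 of 100 changed by 2 and 2 unchanged ones. The number of arrays limits the precision: the median SE of a log2 difference was 0.104. Probe coordinates follow the array files (mm9), and promoters are RefSeq's on GRCm38.p6, so positions from the 2 builds are not compared. Named genes were the 9 members, up to 4 called genes per list and comparison by size of change, *Ppargc1a*, and the 3 genes most like *Nr1h3*, *Abca1*, *Abcg5* and *Srebf1*; other genes, such as *Rxra*, *Rxrb* and *Acaca*, were added after their values were seen, and results of some listed genes are not reported here. The members and gene lists were chosen with earlier results of these data known. iPGC1a-/- mice on chow were not analysed here. Figures were drawn with matplotlib 3.10.9 in Python 3.11.15.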

Additional observations from a re-analysis of the deposited data

Results flagged for a closer look

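Within each group of 6 arrays, the highest or lowest member value was set against Dixon's 95% limit on its gap to the nearest value. Of 39 probe and group pairs 6 passed it, where chance passes about 1 in 20 of independent pairs. These pairs share arrays, and some share a gene, so their count was not tested against that rate. Chow array 4 gave 4 of them: it was lowest at 7.52 for *Abca1* probe 1 (nearest 9.18), at 4.93 for *Abca1* probe 2 (nearest 5.64), at 14.08 for *Abcg5* (nearest 14.68) and at 8.00 for *Mylip* (nearest 8.39). In floxed mice on HFD, array 4 was lowest for *Nr1h3* probe 1 at 12.68 (nearest 12.80) and array 1 for *Lpcat3* probe 1 at 14.92 (nearest 15.18).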

How the results depend on the processing

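With diet, 7 member genes were called under each of 14 alternatives, and 6 to 7 when 1 array was left out: *Lpcat3* lost its call without chow array 1 or floxed HFD array 5, and *Abcg5* without chow array 4. By genotype 0 members were called under every alternative and with any array left out, while the count of member probes without overlap on HFD ranged from 0 to 1. The count of genes called in all with diet was 1960, and 3006 with scaling to the 75th percentile of the background-subtracted signal and 5874 with no fold threshold. By genotype it was 35, and 58 with no fold threshold. Of the diet calls 38.7% were higher (760 genes), against 43.3% (1305 genes) with that scaling and 48.7% (952 genes) with the 75th percentile of the median signal. Of the genotype calls 54.3% were higher, against 40.5% with the scaling of the background-subtracted signal and 34.5% with no fold threshold. The cause was not tested. The sign of *Nr1h2* with diet turned to 0.13 under it, to 0.10 with the 75th percentile of the median signal and to 0.07 with the mean of its probes. By genotype *Abcg5* turned to -0.04 and -0.05 under the same pair of scalings. With 1 array left out, genotype differences ranged from -0.16 to 0.03 for *Abca1*, from -0.12 to 0.04 for *Abcg1* and from -0.07 to 0.08 for *Abcg5*, none of them called.

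Replicate numbers are shared by the groups, and the main fit left them out. Same-numbered arrays deviated together in part (r from -0.131 to 0.284 with diet and from -0.188 to 0.332 by genotype). Of 12 arrays, 7 with diet and 5 by genotype correlated best with their own number. What same-numbered arrays have in common was not tested. With the replicate number as a block, 7 member genes were called with diet and 0 by genotype, and 1972 and 31 genes in all, so no call of a member changed.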
